A study of Mus musculus with 24 samples.

Results

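The genes described here are 41 genes of the motile cilium, chosen by name for their part in building or moving cilia. A gene was represented by the array feature annotated to its symbol or a current alias, and where several features matched, the brightest on average stood for the gene. By this rule 39 of the 41 genes were measured, out of 20738 measured genes in all. Dnah3 and Dnah12 were not assigned a feature, because a feature with the older symbol Dnahc3 is listed as an alias of both. That feature averaged 7.60 on the log2 scale in PBS lungs and 7.62 in bleomycin lungs under the control gapmer. The feature with the array symbol Spag6 carries the accession of the gene now called Spag6l and is reported under that name.

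Motile cilia cover the ciliated cells of the airways and clear mucus by beating. Each cilium is a ring of microtubule doublets around a central pair, and dynein arms on the doublets slide them against each other, while radial spokes, the central pair and the nexin links turn sliding into bending. In airway epithelium the transcription factor Foxj1, with RFX factors, turns on these structural genes, and multicilin (Mcidas) and cyclin O (Ccno) drive the making of the many basal bodies from which cilia grow.

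The data are 24 one-colour Agilent arrays, each of total RNA extracted from the whole lung of C57BL/6 mice aged 9 to 12 weeks. Lungs came from 6 groups, given PBS or bleomycin, which causes lung injury and then scarring, each combined with a control gapmer (GP Ctrl) or gapmer 1 (GP DNM3OS-1) or gapmer 3 (GP DNM3OS-3) against Dnm3os, a long noncoding RNA. A gapmer is an antisense oligonucleotide that directs the cutting of its target RNA. Each PBS group had 3 arrays and each bleomycin group 5, and all animals, the controls included, had received a gapmer. For dose, interval after bleomycin, sex and batch the sources used here give nothing. The labels do not say which samples are separate animals, so that p-values reflect only how these samples spread, which may be technical. The series asks what silencing of Dnm3os does in bleomycin-induced lung fibrosis, and the comparisons below ask it of the cilia genes.

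Values are log2 intensities, quantile-normalised, so that a difference of 1 is a doubling, and levels of different genes are not compared because their probes differ. RNA integrity numbers lay between 8.5 and 10 over all samples. The lung markers Sftpc, Scgb1a1, Ager and Cldn5 had group means of 13.9 or more in every group. Dnm3os averaged 6.90 in bleomycin lungs under the control gapmer, and was lower by limma with gapmer 1 (a log2 difference of -0.72, adjusted p = 0.000186) and with gapmer 3 (-0.50, adjusted p = 0.00293). In whole lung, fewer ciliated cells and less RNA per ciliated cell cannot be told apart. Differences are from 1 limma fit of all arrays, with p-values adjusted by Benjamini-Hochberg over all 20738 genes, and a gene is called higher or lower at an adjusted p under 0.05.

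RefSeq promoter sequences (mouse build GRCm38.p6), which span 250 bases before to 50 bases after a transcription start, matched 35 of the 41 genes with 38 windows. The core of the site that RFX factors bind, GTTGCC on either strand (GGCAAC when read from the other strand), was present in 17 of the 38 windows (44.7%), and in 12.5% of all 32851 promoter windows. The full X-box, in which 2 core-like repeats face each other, was present in 1 of 38 windows (2.63%), that of Ccdc151, against 0.451% of all windows. The forkhead site TGTTTAC, on either strand, was present in 3 of 38 windows (7.89%), those of Ak7, Cfap43 and Sntn, against 3.65% of all windows. A match is a description of the letters in the window, not a binding site shown by these data. In the stretch from 60 bases before to 20 bases after the start, a range chosen after the positions were seen, the core was found in 9 of 38 windows (23.7%) and in 3.91% of all windows.

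The 7 stretches below, each of 80 bases and written 5′ to 3′ on the gene's strand, are from genes whose array values or differences are given later. They were picked for RFX letters from 60 bases before to 20 after the start, so that this closeness follows from the choice. The stretches of Iqcg, Lrrc23 and Tekt4, whose differences are given later too, also hold the core and are not shown. In Ccno, Mcidas, Rfx2, Rfx3, Spag6l, Spag16 and Sntn the core lay in the window but outside this range. Capitals mark the core GTTGCC or GGCAAC, and in Ccdc151 the full X-box. Dnaic2 lies at chr11:114727359-114727438 on the plus strand, Ccdc151 at chr9:22002615-22002694 on the minus strand and Hydin at chr8:110266917-110266996 on the plus strand. Drc1 lies at chr5:30281333-30281412 on the plus strand, Ccdc113 at chr8:95534040-95534119 on the plus strand, Tekt1 at chr11:72361863-72361942 on the minus strand and Tekt2 at chr4:126325669-126325748 on the minus strand. The stretch of Tekt1 holds the core 2 times, once on each strand.
Dnaic2: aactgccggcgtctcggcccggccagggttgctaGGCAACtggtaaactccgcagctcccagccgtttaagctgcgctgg
Ccdc151: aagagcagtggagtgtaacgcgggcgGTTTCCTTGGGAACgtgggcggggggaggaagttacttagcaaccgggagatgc
Hydin: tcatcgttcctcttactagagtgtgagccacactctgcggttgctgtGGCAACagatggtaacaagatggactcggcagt
Drc1: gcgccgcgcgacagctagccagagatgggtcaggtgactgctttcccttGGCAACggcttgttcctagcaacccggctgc
Ccdc113: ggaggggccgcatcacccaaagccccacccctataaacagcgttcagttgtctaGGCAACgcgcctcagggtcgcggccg
Tekt1: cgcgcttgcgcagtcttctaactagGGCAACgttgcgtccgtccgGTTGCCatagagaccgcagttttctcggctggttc
Tekt2: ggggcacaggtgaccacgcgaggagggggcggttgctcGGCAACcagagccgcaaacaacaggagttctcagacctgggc

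Under the control gapmer, most cilia genes were lower in bleomycin lungs than in PBS lungs. Of the 39 genes, 22 fell and 1, Ccno, rose, and 16 were not called, while over all genes 33.8% were called, 19.3% lower and 14.5% higher. The median log2 difference of the cilia genes was -0.30, against -0.02 over all genes, and 36 of 39 differences were negative. In 17 genes every bleomycin array lay below every PBS array, and in 1 gene, Ccno, above; over all genes such separation was seen below in 18.2% and above in 15.1%. The median half-width of the 95% interval of a difference was 0.23, so that small changes were not detectable with these numbers of arrays. The falls were modest in size, with the largest in Tppp3, which was at 46.7% of its PBS level.

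**Figure D1:**
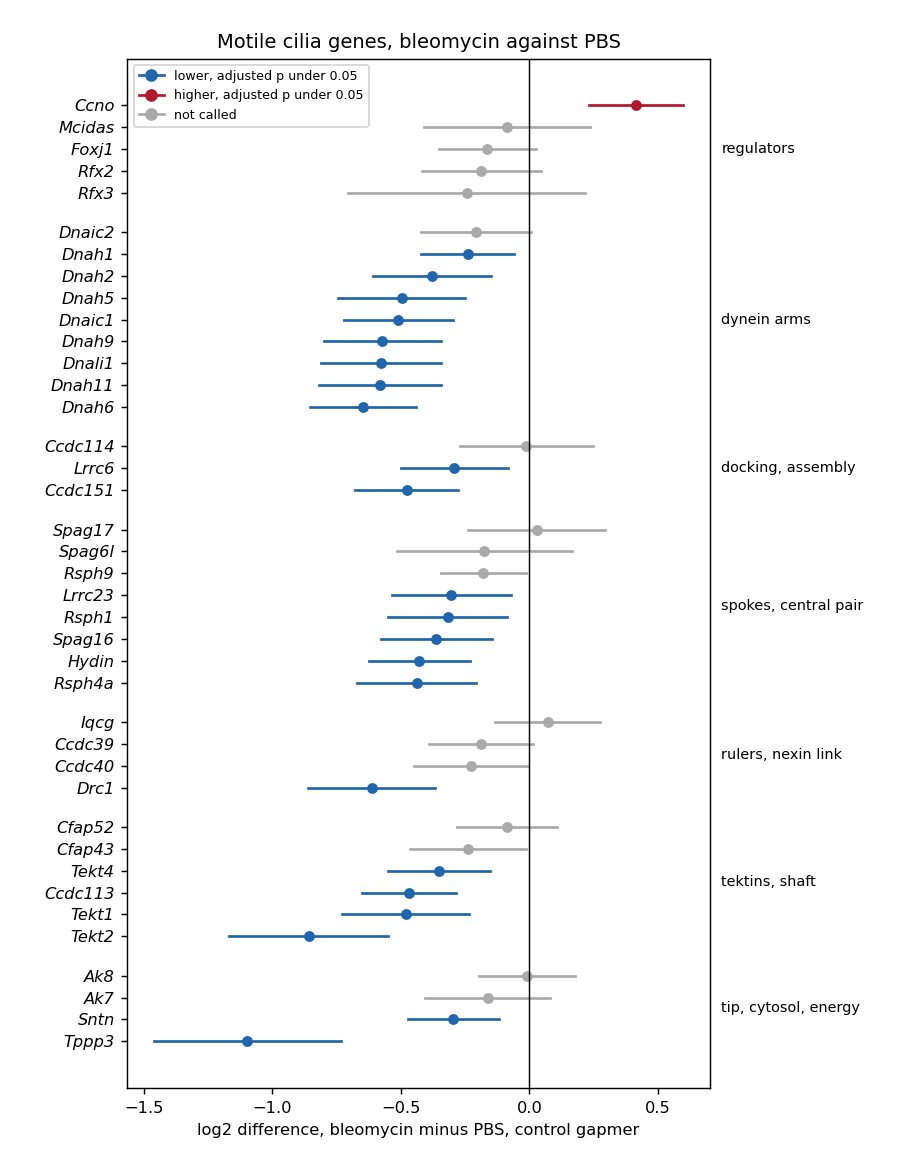
Log2 difference between bleomycin (5 arrays) and PBS (3 arrays) lungs under the control gapmer for each of the 39 cilia genes, grouped by role. Points are differences of group means and lines are 95% intervals from the limma fit; blue genes were called lower, the red gene (Ccno) higher and grey genes were not called, and Tppp3 and Tekt2 lie farthest to the left.

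The dynein arms, the motors of the cilium, held the highest count of lowered genes, with 8 of 9 called and a median difference of -0.51. Dnah6, a heavy chain of the inner arm, measured 12.39, 12.19 and 12.50 in the PBS arrays and 11.70, 11.65, 11.63, 11.60 and 11.96 in the bleomycin arrays. All 5 bleomycin values were below all 3 PBS values, and the difference was -0.65 (SE 0.10, limma adjusted p = 2.6e-05). The outer arm heavy chains Dnah11 (-0.58), Dnah9 (-0.57) and Dnah5 (-0.50), the outer arm intermediate chain Dnaic1 (-0.51) and the inner arm light intermediate chain Dnali1 (-0.58) fell by similar amounts, to between 66.9% and 70.8% of the PBS level. The inner arm heavy chains Dnah2 (-0.38) and Dnah1 (-0.24) fell with overlapping arrays. Dnah1 was dim, with a mean of 6.39 over all arrays, below the array medians. Dnaic2, the other intermediate chain of the outer arm, differed by -0.21 with a limma adjusted p of 0.135 and was not called.

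Of the 3 genes that dock or assemble the arms, Ccdc151 and Lrrc6 fell and Ccdc114 did not pass the test. Ccdc151, a subunit of the outer arm docking complex, measured 10.04, 9.89 and 10.21 in PBS lungs and 9.55, 9.48, 9.47, 9.53 and 9.82 in bleomycin lungs. The groups did not overlap, and the difference was -0.48 (SE 0.10, limma adjusted p = 0.000499). Lrrc6, an assembly factor of the arms, differed by -0.29, and Ccdc114, a partner of Ccdc151 in the docking complex, by -0.01 with a 95% interval from -0.27 to 0.25.

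Among the radial spoke and central pair genes 5 of 8 fell. Hydin, a protein of the central pair whose loss causes hydrocephalus in mice, measured 9.40, 9.18 and 9.29 in PBS lungs and 8.73, 8.98, 8.71, 8.85 and 9.03 in bleomycin lungs. Its difference was -0.43 (SE 0.09, limma adjusted p = 0.00115), with no overlap. The spoke head genes Rsph4a (-0.44) and Rsph1 (-0.32), the spoke gene Lrrc23 (-0.30) and the central pair gene Spag16 (-0.36) also fell. Rsph9, another spoke head gene, measured 12.01, 11.81 and 12.01 in PBS lungs and 11.88, 11.69, 11.65, 11.79 and 11.81 in bleomycin lungs. Here the groups overlapped, and the difference of -0.18 was not called (limma adjusted p = 0.0896). The central pair genes Spag6l (-0.18) and Spag17 (0.03) were not called either. Spag16 and Spag17 were dim, with means of 6.73 and 6.54 over all arrays.

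Of the 4 genes of the rulers and nexin links, which set the spacing along the doublet and tie neighbouring doublets, only Drc1 was called. This subunit of the nexin-dynein regulatory complex measured 12.11, 11.95 and 12.21 in PBS lungs and 11.43, 11.34, 11.51, 11.42 and 11.67 in bleomycin lungs. The groups were well separated, with a difference of -0.61 (SE 0.12, limma adjusted p = 0.000305). The ruler genes Ccdc39 and Ccdc40 differed by -0.19 and -0.23, and Iqcg, another subunit of the regulatory complex, by 0.07; none of these passed the test.

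The tektins, filaments inside the doublet wall, all fell, as did Ccdc113, and 4 of the 6 genes of this group were called. Tekt2 measured 9.83, 9.56 and 10.19 in PBS lungs and 8.88, 8.84, 9.10, 8.77 and 9.41 in bleomycin lungs. It differed by -0.86 (SE 0.15, limma adjusted p = 0.0001), or 55.1% of the PBS level. Tekt1 measured 11.85, 11.62 and 11.82 in PBS lungs and 11.22, 11.14, 11.15, 11.29 and 11.61 in bleomycin lungs, a difference of -0.48 (limma adjusted p = 0.00308). In both genes the groups did not overlap, although the highest bleomycin value of Tekt1 came close to its lowest PBS value. Tekt4 differed by -0.35 and Ccdc113 by -0.47. Cfap43, needed for normal axonemes, and Cfap52, a protein of the doublet lumen, differed by -0.24 and -0.09 and were not called.

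Tppp3, a tubulin-binding protein and common marker of ciliated cells, fell most of all the cilia genes. It measured 13.77, 13.81 and 13.40 in PBS lungs and 12.68, 12.15, 12.47, 12.59 and 12.92 in bleomycin lungs, a difference of -1.10 (SE 0.17, limma adjusted p = 4.1e-05). The lowest PBS array was still above the highest bleomycin array. Sntn, which codes for sentan, a protein of the ciliary tip, fell by 0.30, and the adenylate kinases Ak7 (-0.16) and Ak8 (-0.01) were not called. Tppp3 is also made by other lung cells, and their part in its fall was not tested.

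Of the 5 regulators none was called lower and Ccno was called higher. Foxj1 measured 11.16, 11.15 and 11.21 in PBS lungs and 10.88, 11.01, 11.02, 10.94 and 11.19 in bleomycin lungs. The highest bleomycin array reached into the PBS range, and the difference of -0.16 (95% interval -0.35 to 0.02) was not called (limma adjusted p = 0.181). Ccno measured 9.00, 9.01 and 9.18 in PBS lungs and 9.39, 9.54, 9.45, 9.54 and 9.45 in bleomycin lungs. All bleomycin values were above all PBS values, and the difference was 0.41 (SE 0.09, limma adjusted p = 0.000847).

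Rfx2 measured 7.05, 7.13 and 7.13 in PBS lungs and 6.97, 6.90, 6.63, 7.10 and 7.0 in bleomycin lungs, a difference of -0.19 (limma adjusted p = 0.219). Rfx3 varied widely within groups, with 6.71, 7.49 and 7.58 in PBS lungs and 7.03, 6.92, 7.32, 6.58 and 7.24 in bleomycin lungs (difference -0.24, limma adjusted p = 0.441). Mcidas measured 13.45, 14.01 and 13.36 in PBS lungs and 13.40, 13.40, 13.64, 13.43 and 13.71 in bleomycin lungs (difference -0.09, limma adjusted p = 0.724). The groups overlapped in all 3 genes, whose intervals were among the widest for Rfx3 (-0.71 to 0.22) and Mcidas (-0.41 to 0.24). Mcidas had 1 feature, which was bright (mean 13.62), and whether it measures Mcidas alone was not tested.

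Of the 23 genes called, Ccno and 16 lowered genes passed the test whichever array was left out. Calls were lost for Dnah1 (limma adjusted p = 0.166), Dnah2 (0.0695), Spag16 (0.105) and Lrrc23 (0.299) without PBS control array 1, and for Lrrc6 (0.174) and Rsph1 (0.217) without PBS control array 3. Calls of Dnah1, Lrrc6, Lrrc23 and Spag16 were also lost under other settings, such as a fit of only the compared groups (limma adjusted p = 0.151, 0.0988, 0.113 and 0.0576). Another feature of the same gene differed in sign for Ak8, Ccdc40, Dnah6, Rfx3, Spag16 and Spag17. The second Dnah6 feature was dim (mean 5.85, difference 0.07), whereas the second features of Rsph1, Rsph4a and Tekt1, with means of 8.81, 8.80 and 10.9, differed by -0.39, -0.39 and -0.29.

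In PBS lungs, neither gapmer gave a called change in any cilia gene. With gapmer 1 against the control gapmer, 0 of 39 genes were called by limma and 3 had an unadjusted p under 0.05 (Dnah5, Dnah1 and Dnah9), while 1.11% of all genes were called. With gapmer 3, 0 of 39 were called and 2 had an unadjusted p under 0.05 (Ccdc39 and Spag17), while 0.0338% of all genes were called. The median differences were -0.03 and 0.04. The median half-width of the 95% intervals, which are not adjusted for the number of genes, was 0.25. A call in general needs a larger difference, so that changes above 0.25 could also go uncalled. Dnah5 had the largest difference with gapmer 1, at -0.37 (95% interval -0.64 to -0.09, limma adjusted p = 0.152).

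Among the regulators in PBS lungs, Foxj1 measured 10.97, 11.05 and 11.17 with gapmer 1 and 11.10, 11.28 and 11.25 with gapmer 3. Ccno measured 9.33, 8.96 and 9.19 with gapmer 1 and 9.00, 8.93 and 8.99 with gapmer 3. The Foxj1 ranges overlapped the PBS control arrays, while for Ccno, whose control arrays lay between 9.00 and 9.18, the gapmer 3 arrays were at or below the lowest of them. Rfx2 measured 7.18, 7.35 and 7.10 with gapmer 1 and 7.27, 7.38 and 7.08 with gapmer 3. Rfx3 measured 7.0, 7.26 and 7.29 with gapmer 1 and 7.07, 7.37 and 7.72 with gapmer 3. Mcidas measured 13.71, 13.98 and 13.90 with gapmer 1 and 13.68, 13.94 and 14.02 with gapmer 3. The ranges of these 3 genes overlapped those of the PBS control arrays.

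Among the structural genes in PBS lungs, Dnah6 measured 12.11, 12.21 and 12.10 with gapmer 1 and 12.13, 12.22 and 12.23 with gapmer 3. Ccdc151 measured 9.95, 9.98 and 9.73 with gapmer 1 and 9.81, 10.05 and 9.92 with gapmer 3. Hydin measured 9.40, 9.35 and 9.15 with gapmer 1 and 9.32, 9.50 and 9.43 with gapmer 3. All of these groups overlapped the PBS control arrays. Rsph9 measured 12.06, 11.78 and 11.85 with gapmer 1 and 12.06, 11.95 and 11.91 with gapmer 3. Drc1 measured 12.03, 12.00 and 11.85 with gapmer 1 and 11.86, 12.06 and 12.06 with gapmer 3. Here too the arrays of both gapmers overlapped the control arrays. Tekt1 measured 11.76, 11.66 and 11.46 with gapmer 1 and 11.53, 11.87 and 11.67 with gapmer 3. Tekt2 measured 9.76, 9.73 and 9.55 with gapmer 1 and 9.41, 9.63 and 9.71 with gapmer 3. In Tekt1 and Tekt2 the lowest gapmer arrays were below the lowest control array, and the ranges overlapped.

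In bleomycin lungs, several cilia genes were higher with a Dnm3os gapmer than with the control gapmer. With gapmer 1, 7 of 39 genes rose and 0 fell (5.47% and 5.09% of all genes), the median difference was 0.20 against 0.02 over all genes, and 35 of 39 differences were positive. With gapmer 3, 6 of 39 rose and 1, Ccno, fell (5.63% and 7.53% of all genes), the median difference was 0.13 against 0.01 over all genes, and 35 of 39 were again positive. Both comparisons use the same 5 control arrays, which also enter the comparison of bleomycin with PBS, so that their values are not independent. Alveolar and endothelial markers were also higher with both gapmers, as given with the cell type markers, and their part in the cilia gene values was not tested. Dnah6, Ccdc39, Cfap43 and Tppp3 were called higher with both gapmers. Dnali1, Hydin and Ccdc113 were called higher with gapmer 1, and Dnah5 and Spag6l with gapmer 3.

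Tppp3 measured 13.46, 13.53, 13.29, 12.64 and 12.74 with gapmer 1 and 13.12, 13.05, 13.04, 12.91 and 13.04 with gapmer 3. With gapmer 1 the arrays split, 3 above the control range of 12.15 to 12.92 and 2 within it, while the gapmer 3 arrays lay close together, 4 above that range and 1 just below its top. The differences from the control gapmer were 0.57 (SE 0.15, limma adjusted p = 0.0177) and 0.47 (SE 0.15, limma adjusted p = 0.0427).

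Dnah6 measured 12.04, 12.21, 12.20, 11.78 and 12.11 with gapmer 1 and 12.11, 11.88, 12.11, 11.85 and 11.95 with gapmer 3. Of these arrays 4 with gapmer 1 and 2 with gapmer 3 were above the control range, whose top, 11.96, was set by control array 5. The differences were 0.36 (SE 0.09, limma adjusted p = 0.00915) and 0.27 (SE 0.09, limma adjusted p = 0.0405).

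Ccdc39, the ruler gene that was not called between bleomycin and PBS, measured 8.0, 7.74, 7.67, 7.68 and 8.04 with the control gapmer, 8.16, 8.14, 8.26, 8.03 and 8.36 with gapmer 1 and 8.29, 8.16, 8.17, 8.19 and 8.22 with gapmer 3. Every gapmer 3 array was above every control array, and the differences were 0.36 (limma adjusted p = 0.00731) and 0.38 (limma adjusted p = 0.00411). Cfap43, likewise not called between bleomycin and PBS, differed by 0.40 with gapmer 1 (limma adjusted p = 0.00876) and by 0.40 with gapmer 3 (limma adjusted p = 0.006). In PBS lungs these 2 genes differed by 0.18 and 0.12 with gapmer 1 and by 0.26 and 0.23 with gapmer 3, none of them called. Every PBS gapmer 3 array of Ccdc39 (8.21, 8.30 and 8.31) was above every PBS control array (7.99, 7.98 and 8.07). Such separation was seen in 876 of 20738 genes, and among the cilia genes also, by small margins, in Tekt4 and Ak7 but not in Cfap43.

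Hydin measured 9.27, 9.19, 9.36, 9.18 and 9.10 with gapmer 1, all above the control gapmer arrays, a difference of 0.36 (SE 0.08, limma adjusted p = 0.00662). With gapmer 3 it measured 9.24, 8.87, 9.16, 8.93 and 8.96, which overlapped the control arrays, a difference of 0.17 (limma adjusted p = 0.184). The difference between the gapmers was not called for Hydin or for any other cilia gene (0 of 39 by limma, 4 with an unadjusted p under 0.05; 0% of all genes called). Ccdc113 (0.32) also had every gapmer 1 array above every control array, and Dnah5 (0.33) every gapmer 3 array. Arrays above all control arrays were seen in 2 of 39 genes with gapmer 1 and in 2 with gapmer 3, against 2.87% and 4.83% of all genes.

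Ccno, the gene that rose with bleomycin, fell with gapmer 3. It measured 9.16, 9.09, 9.04, 9.10 and 8.99 with gapmer 3, all below the control arrays (as in 8.04% of all genes), a difference of -0.40 (SE 0.08, limma adjusted p = 0.00124). With gapmer 1 it measured 9.22, 9.06, 9.16, 9.52 and 9.34, which overlapped the control arrays, a difference of -0.22 (limma adjusted p = 0.0763). Foxj1 measured 11.15, 11.29, 11.20, 11.03 and 11.32 with gapmer 1 and 11.09, 11.03, 11.47, 11.28 and 11.23 with gapmer 3. These ranges overlapped the control arrays, and the differences of 0.19 (limma adjusted p = 0.137) and 0.21 (limma adjusted p = 0.0837) were not called.

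Rfx2 measured 7.50, 7.18, 7.16, 7.21 and 6.95 with gapmer 1 and 7.28, 7.22, 6.94, 7.03 and 7.12 with gapmer 3. Rfx3 measured 6.97, 7.27, 7.10, 6.97 and 7.50 with gapmer 1 and 6.83, 6.79, 7.58, 7.30 and 7.62 with gapmer 3. Mcidas measured 13.47, 13.80, 13.55, 13.52 and 12.88 with gapmer 1 and 13.52, 13.66, 13.63, 13.57 and 13.59 with gapmer 3. None of these regulators was called: Rfx2 differed by 0.28 with gapmer 1 (limma adjusted p = 0.068) and by 0.20 with gapmer 3, Rfx3 by 0.14 and 0.20, and Mcidas by -0.07 and 0.08. All of their ranges overlapped those of the control arrays.

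Tekt2 measured 9.18, 9.43, 9.47, 8.94 and 9.57 with gapmer 1 and 9.21, 9.29, 9.34, 9.29 and 9.21 with gapmer 3. These values overlapped the bleomycin control arrays, and the differences (0.32 and 0.27) were not called. Drc1 measured 11.66, 11.89, 11.81, 11.39 and 11.96 with gapmer 1 and 11.77, 11.48, 11.94, 11.71 and 11.50 with gapmer 3, which gave differences of 0.27 and 0.21, not called.

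Tekt1 measured 11.55, 11.63, 11.74, 11.45 and 11.32 with gapmer 1 and 11.60, 11.36, 11.45, 11.28 and 11.14 with gapmer 3 (differences 0.26 and 0.08). Ccdc151 measured 9.72, 9.80, 9.82, 9.51 and 9.89 with gapmer 1 and 9.56, 9.58, 9.71, 9.61 and 9.48 with gapmer 3 (differences 0.18 and 0.02). Rsph9 measured 11.95, 11.86, 11.86, 11.88 and 11.79 with gapmer 1 and 12.00, 11.65, 11.79, 11.86 and 11.75 with gapmer 3 (differences 0.10 and 0.05). In these genes of the doublet wall, the docking complex and the spoke head, the gapmer arrays overlapped the control arrays and no difference was called.

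The counts depended on single arrays. Bleomycin control array 5 had the highest cilia gene values on average among these controls. Without it, 15 genes were called higher with gapmer 1 and 10 with gapmer 3. Without gapmer 1 array 4 the first count was 11. With gapmer 3 the count was 2 without bleomycin control array 3 or 4 or gapmer 3 array 1 or 3, and 3 without bleomycin control array 1 or 2 or gapmer 3 array 4 or 5. The limma adjusted p of Tppp3 was 0.0719 with gapmer 1 and 0.145 with gapmer 3 without bleomycin control array 2. Without gapmer 3 array 3 it was 0.108 for Dnah5, 0.115 for Dnah6 and 0.0874 for Spag6l with gapmer 3. The calls of Ccdc39 and Cfap43 with both gapmers, of Dnah6, Dnali1, Hydin and Ccdc113 with gapmer 1 and of Ccno with gapmer 3 held whichever array was left out.

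Some of these calls depended on how features and groups entered the fit. When the features of a gene were averaged in place of taking the brightest, Dnah6 differed by 0.15 with gapmer 1 (limma adjusted p = 0.136) and by 0.08 with gapmer 3 (limma adjusted p = 0.478), and Hydin by 0.19 with gapmer 1 (limma adjusted p = 0.0809). In a fit of only the compared groups, the limma adjusted p with gapmer 1 was 0.0511 for Dnah6, 0.0596 for Dnali1 and 0.106 for Tppp3. With gapmer 3 it was 0.0663 for Dnah5 after a position trend was removed and 0.0531 for Tppp3 with the RNA integrity number as a covariate.

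**Figure D2:**
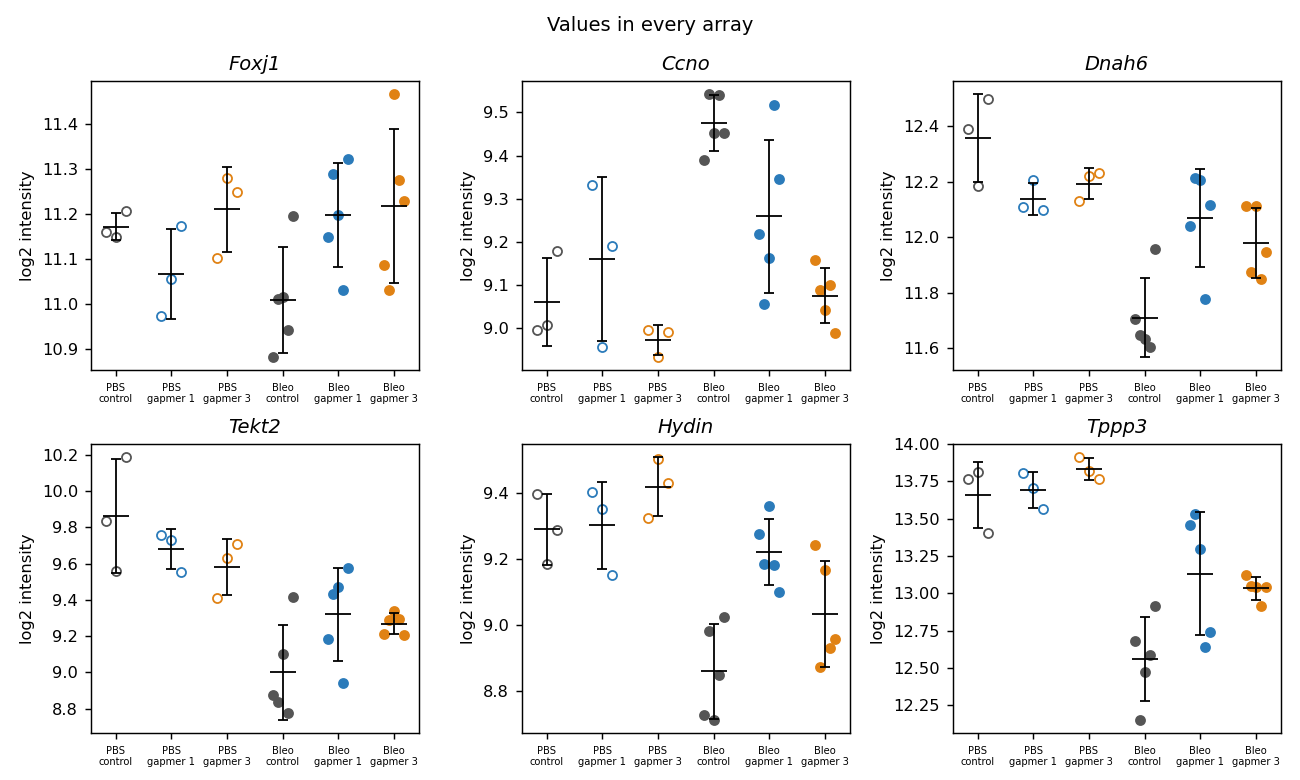
Log2 intensity of 6 cilia genes in every array, by treatment and gapmer (open points PBS, 3 arrays a group; filled points bleomycin, 5 arrays a group). Horizontal lines are group means and bars are SDs; each panel has its own axis, which does not start at 0. Dnah6, Tekt2, Hydin and Tppp3 are lowest in bleomycin lungs with the control gapmer, where Ccno is highest and Foxj1 overlaps the PBS arrays.

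Set against PBS lungs with the same gapmer, bleomycin lowered fewer cilia genes under either Dnm3os gapmer than under the control gapmer. Under gapmer 1, 2 of 39 genes fell (Rsph4a and Tppp3) and 0 rose, with 3.13% of all genes called lower and 6.37% higher, and the median difference was -0.06. Under gapmer 3, 9 of 39 fell and 0 rose, with 6.85% of all genes called lower and 7.03% higher, and the median was -0.23. These were Dnaic1, Ccdc151, Lrrc6, Rsph4a, Hydin, Tekt4, Ccdc113, Tppp3 and Sntn, all among the 22 lowered under the control gapmer. The 2 genes lowered under gapmer 1 were also lowered in both other comparisons. Tppp3 fell by 0.56 under gapmer 1 (SE 0.17, limma adjusted p = 0.0451) and by 0.80 under gapmer 3 (SE 0.17, limma adjusted p = 0.00304).

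In PBS lungs Tppp3 measured 13.81, 13.71 and 13.57 with gapmer 1 and 13.91, 13.82 and 13.77 with gapmer 3, above all bleomycin arrays with the same gapmer. Rsph4a fell by 0.40 under gapmer 1 (limma adjusted p = 0.024) and by 0.39 under gapmer 3 (limma adjusted p = 0.0214), close to its fall of 0.44 under the control gapmer. Tekt4 fell by 0.43 under gapmer 3 (limma adjusted p = 0.00345). The count under gapmer 1 was 0 without PBS gapmer 1 array 1 or 2 or without bleomycin gapmer 1 array 4 or 5. The count under gapmer 3 was 3 without PBS gapmer 3 array 2 and 5 without PBS gapmer 3 array 3. Only the calls of Tekt4 and Tppp3 under gapmer 3 held whichever array was left out. With the replicate number as a block, the limma adjusted p of Rsph4a was 0.0649 under gapmer 1 and 0.0583 under gapmer 3, that of Tppp3 under gapmer 1 was 0.099 and that of Sntn under gapmer 3 was 0.0786. Hydin under gapmer 3 differed by -0.13 with its features averaged (limma adjusted p = 0.318), and Ccdc113 had a limma adjusted p of 0.0607 in a fit of only the compared groups.

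A count that passes in 1 group and not in another does not show that the groups differ, so the difference in bleomycin response was tested itself. Between gapmer 1 and the control gapmer the response was higher in 4 of 39 genes and lower in 0, while 4.97% of all genes were called higher and 2.74% lower. These genes were Dnah6 (0.58, SE 0.14, limma adjusted p = 0.0171), Ccdc113 (0.45, adjusted p = 0.0321), Dnali1 (0.55, adjusted p = 0.0377) and Dnah5 (0.56, adjusted p = 0.0435). All 4 fell with bleomycin under the control gapmer, while under gapmer 1 their bleomycin differences were -0.07, -0.02, -0.03 and 0.07. The median over the 39 genes was 0.25, against 0.03 over all genes, and 34 of 39 were positive.

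For Dnah5 the higher response came with lower values of the PBS gapmer 1 arrays, at 9.69, 10.39 and 10.08, against 10.37 to 10.48 in the PBS control arrays. The PBS gapmer 1 arrays of Dnah6 reached from below the PBS control arrays into their range. In Dnali1 and Ccdc113 the PBS gapmer 1 means (10.84 and 11.33) were also below the PBS control means (11.01 and 11.45), with overlapping arrays. These 4 calls rested on few arrays. Without PBS control array 3 none was left, and the limma adjusted p was 0.0549 for Dnah6, 0.113 for Dnali1 and 0.105 for Ccdc113, while without PBS gapmer 1 array 1 it was 0.143 for Dnah5. The count was 8 without bleomycin control array 5 or bleomycin gapmer 1 array 4. It was 2 without bleomycin control array 3 or bleomycin gapmer 1 array 2 or 5, and 1 without bleomycin control array 1, 2 or 4, PBS control array 1, PBS gapmer 1 array 1 or 3 or bleomycin gapmer 1 array 3. In a fit of only the compared groups the limma adjusted p was 0.0536 for Ccdc113, 0.0909 for Dnah5 and 0.0603 for Dnali1, and for Dnah6 it was 0.169 with its features averaged.

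Between gapmer 3 and the control gapmer, the response differed in 0 of 39 genes by limma (5 with an unadjusted p under 0.05), while 3.1% of all genes were called in either direction. The median difference in response was 0.08 and its median half-width 0.32. Dnah6 had a difference in response of 0.43 (95% interval 0.14 to 0.73, limma adjusted p = 0.0909). The count was 3 without bleomycin control array 5 and 1 without PBS control array 2.

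**Figure D3:**
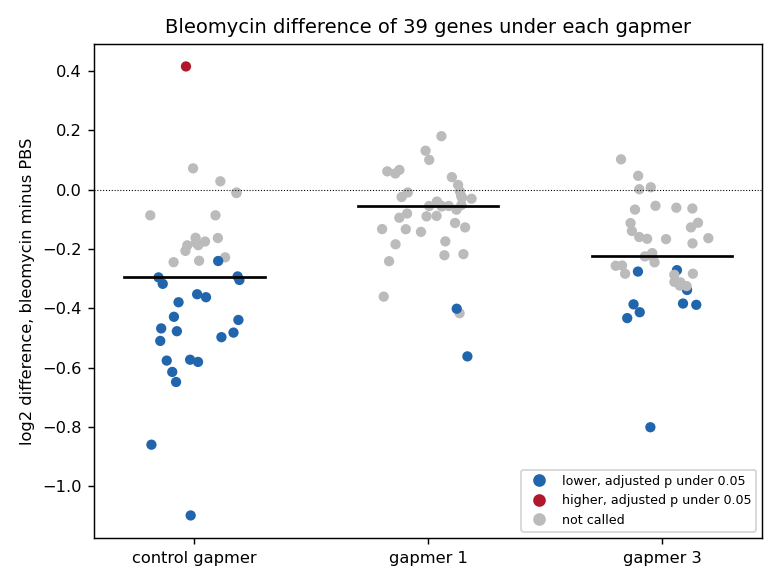
Log2 difference between bleomycin and PBS lungs of the 39 cilia genes under the control gapmer, gapmer 1 and gapmer 3, each from its own 5 bleomycin and 3 PBS arrays. Points are genes, spread sideways for legibility, and black lines are medians (-0.30, -0.06 and -0.23); blue points were called lower and the red point higher.

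Across the 39 genes the bleomycin differences under the 3 gapmers, which come from separate arrays, had a Pearson r of 0.56 between the control gapmer and gapmer 1 and of 0.72 between the control gapmer and gapmer 3. Over all genes these correlations were 0.55 and 0.71, close to the values for the cilia genes. Genes are not independent replicates, and these values are descriptions.

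The level of the cilia genes as a group was followed in each array as the mean over the 39 genes of the log2 difference from the PBS control mean. It was -0.34, -0.40, -0.37, -0.34 and -0.15 in bleomycin lungs with the control gapmer (mean -0.32, SD 0.10). It was -0.11, -0.06, -0.08, -0.24 and -0.17 with gapmer 1 (mean -0.13, SD 0.07) and -0.10, -0.26, -0.11, -0.21 and -0.23 with gapmer 3 (mean -0.18, SD 0.07). The 9 PBS arrays lay between -0.12 and 0.08. Every bleomycin control array was thus below every PBS array, and 4 of its 5 arrays were below all arrays of the gapmer groups. The array at -0.15 overlapped both gapmer groups. In that array 29 of 39 genes were below their PBS control mean, against 35 to 37 in the other 4.

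**Figure D4:**
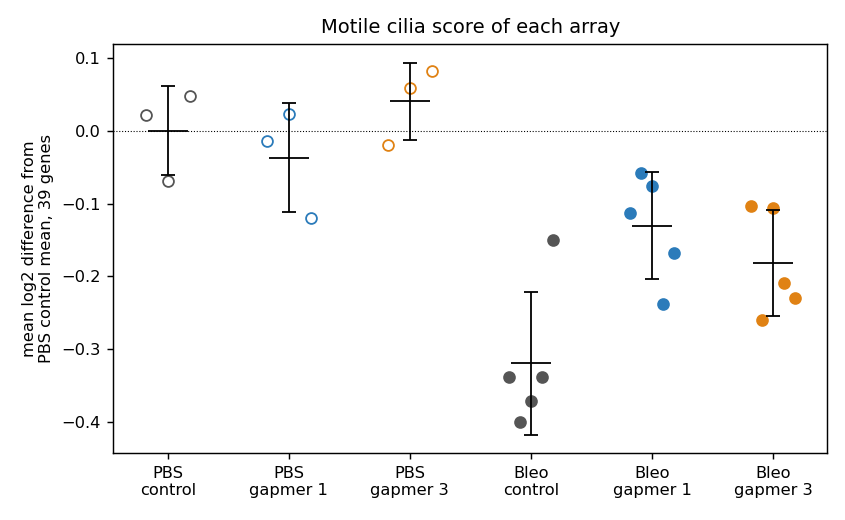
Mean log2 difference of the 39 cilia genes from their PBS control mean, for each array by group (open points PBS, filled points bleomycin; lines are group means and bars SDs). The bleomycin control arrays lie between -0.40 and -0.15, and the highest of them overlaps the gapmer 1 and gapmer 3 bleomycin arrays.

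Role groups differed in how far they moved. In bleomycin lungs with the control gapmer the same measure averaged -0.47 (SD 0.14) for the dynein arms, -0.41 (SD 0.11) for the tektins and shaft genes, -0.39 (SD 0.14) for the tip and cytosolic genes and -0.27 (SD 0.04) for the spoke and central pair genes. It averaged -0.26 (SD 0.13) for the docking and assembly genes, -0.24 (SD 0.14) for the ruler and nexin link genes and -0.05 (SD 0.08) for the regulators. The regulator average combines the rise of Ccno (0.41) with negative differences in the other 4 regulators, and the median regulator difference was -0.16. Over all 9 PBS arrays, the bleomycin control arrays overlapped them in the regulators and, through bleomycin control array 5 alone, in the dynein arms (-0.22), the docking and assembly genes (-0.05) and the ruler and nexin link genes (-0.04). In bleomycin lungs the dynein arms averaged -0.25 (SD 0.12) with gapmer 1 and -0.33 (SD 0.11) with gapmer 3. In PBS lungs with the same gapmers they averaged -0.17 (SD 0.07) and -0.08 (SD 0.07).

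Within groups the cilia genes tended to vary together from array to array. After each group mean was removed, the median Pearson r over the 741 pairs of cilia genes was 0.27 across the 24 arrays, and 72.1% of pairs were above 0, while pairs of a cilia gene with any other gene had a median of 0.02 and 52.2% above 0. Marker lists of other cell types also varied together, with a median r of 0.92 for skeletal muscle, 0.50 for alveolar type 1, 0.38 for goblet cell, 0.22 for alveolar type 2 and 0.21 for leukocyte and for general epithelial markers, and less so endothelial (0.14), basal cell (0.13) and club cell (0.08) markers, so that such values were not particular to the cilia genes. The median was 0.21 in the 9 PBS arrays and 0.33 in the 15 bleomycin arrays. The dynein arm genes were the most alike of the role groups (median 0.67 over 36 pairs), followed by the tektin and shaft genes (0.52) and the tip and cytosolic genes (0.50). Genes on the same arrays share RNA quality and cell make-up, and these values are descriptions without a test.

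The 5 regulators had a median r of -0.16 among themselves. Foxj1 had an r of 0.42 with the mean of the other cilia genes, while Ccno had -0.38. The highest values were those of Dnaic2 (0.88), Dnah6 (0.87), Dnali1 (0.85) and Tekt1 (0.82), and Cfap43 (-0.07), Spag6l (-0.15) and Iqcg (-0.01) were also below 0. Dnaic2, although not called with bleomycin, was thus the gene closest to the others within groups, and Cfap43, called higher with both gapmers, was among the farthest. Rsph1 (0.06), Rfx3 (0.04), Spag17 (0.10) and Mcidas (0.10) were also nearly unrelated to the rest.

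**Figure D5:**
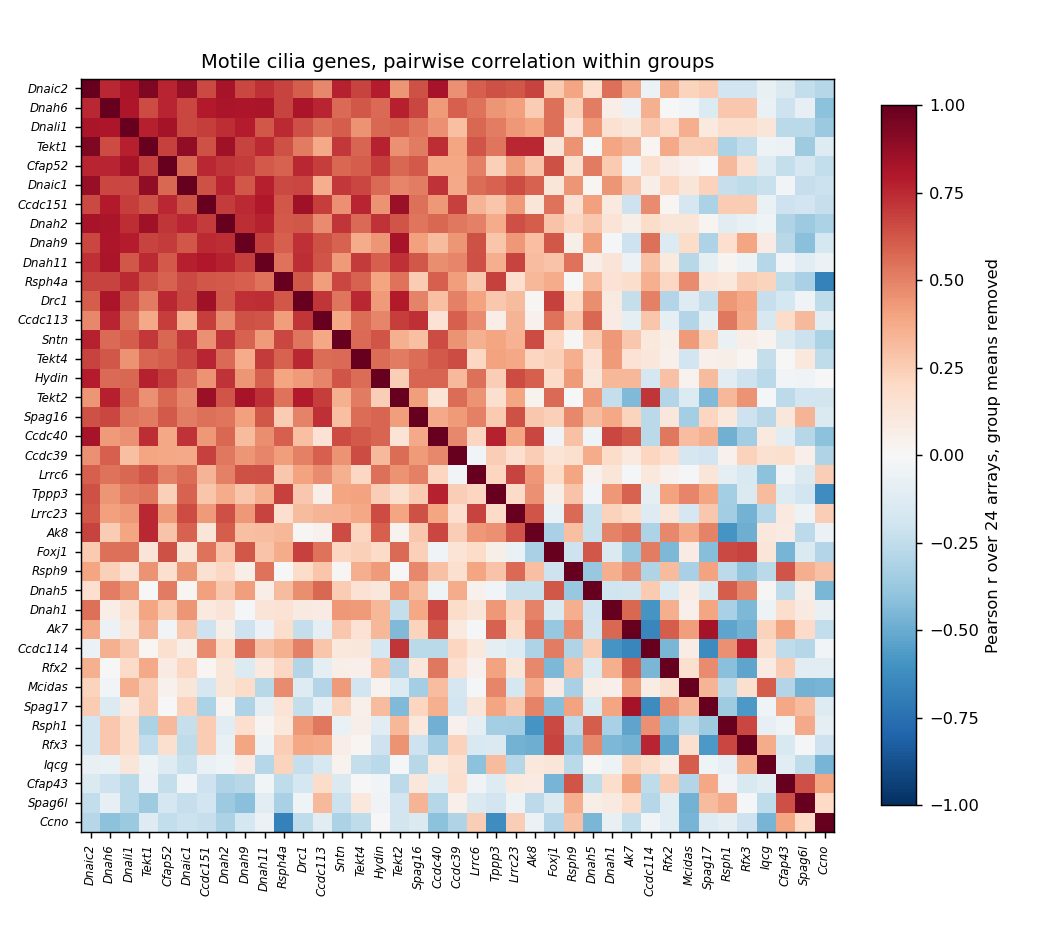
Pearson r between each pair of the 39 cilia genes over 24 arrays after group means were removed, with genes ordered from Dnaic2 (r of 0.88 with the mean of the others) to Ccno (-0.38). Red is positive and blue negative; a block of red at the top left holds 7 of the 9 dynein arm genes, the tektins and Ccdc151, while Dnah5, Dnah1, Lrrc6 and Ccdc114 lie lower, and Ccno at the bottom is mostly blue.

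The 10 other genes with the highest r with this array mean, group means removed, were Ttc16 (0.92), Cibar2 (0.90), Stk33 (0.89), 1700001L19Rik (0.88), Lrrc36 (0.88), Dzank1 (0.88), Ccdc153 (0.87), Rabac1 (0.86), Hoatz (0.86) and Armc4 (0.86). All 10 fell with bleomycin under the control gapmer, by between 0.26 for 1700001L19Rik and 0.81 for Stk33. With gapmer 1 in bleomycin lungs Dzank1 rose by 0.43 (limma adjusted p = 0.000331), and Ttc16, Stk33, Ccdc153 and Rabac1 were also called higher. With gapmer 3 only Dzank1 was called (0.45, limma adjusted p = 0.000107).

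Other cilia genes on a wider list moved in the same direction. Of 69 further motile cilia genes, 30 fell and 0 rose with bleomycin under the control gapmer (median -0.24), against 19.3% and 14.5% of all genes. Those that fell included Iqca (-0.87), Stk33 (-0.81), Mycbpap (-0.79) and Ttll6 (-0.76). With gapmer 1 in bleomycin lungs 11 rose and 0 fell (Ttc25 by 0.54, Dnah7a by 0.48), against 5.47% and 5.09% of all genes. With gapmer 3, 6 rose and 1, Cfap74, fell (-0.34), against 5.63% and 7.53% of all genes. The share that rose with gapmer 3 was thus not far above that of all genes. The mean of this list had an r of 0.85 with that of the 39 genes within groups. In the promoter windows of the listed genes the RFX core was present in 28 of 62 (45.2%), against 12.5% of all windows. Of 29 genes of intraflagellar transport, which carries cargo in primary and motile cilia alike, 13 fell and 0 rose with bleomycin, with Ttc21b (-0.58) and Ift43 (-0.54) in front, and 1 rose with each gapmer, Ift122 (0.24) with gapmer 1 and Kifap3 (0.28) with gapmer 3, a smaller share than the 5.47% and 5.63% of all genes called higher.

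Of 21 genes of centriole amplification, the process in which Ccno and Mcidas act, 6 rose and 4 fell with bleomycin, and the share that fell was near the 19.3% of all genes. Stil (1.05), Cep152 (0.52) and Foxn4 (0.51) rose and Trp73, a transcription factor upstream of Foxj1, fell (-0.48). Several of these genes also serve centriole duplication in dividing cells. With gapmer 1, 2 rose (Trp73 by 0.28 and Ccdc78 by 0.26), and with gapmer 3, 2 fell (Deup1 by 0.37 and Foxn4 by 0.35), a share near the 7.53% of all genes called lower.

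Markers of other cell types moved with the same groups, and their part in the cilia gene values was not tested. Of 10 leukocyte markers 9 rose and 0 fell with bleomycin under the control gapmer (Laptm5 by 1.71, Cd68 by 0.93), and their mean log2 difference from PBS control was 0.65 to 0.85 in these arrays, 0.24 to 0.57 with gapmer 1 and 0.11 to 0.50 with gapmer 3. The array with the smallest leukocyte value among the bleomycin controls, array 5 at 0.65, was the array with the highest cilia value. This array also had the smallest basal cell value (1.32) of these controls, though not the smallest goblet cell value. Its alveolar type 1 (-0.29), alveolar type 2 (-0.17) and endothelial (-0.66) values were the highest of these controls, so that it differed in several lists. Of 9 basal cell markers 7 rose and 1 fell (Krt5 by 4.44, Krt17 by 3.75), with array means of 1.32 to 2.02, and 0.79 to 0.98 with gapmer 1 and 0.12 to 0.85 with gapmer 3. Of 10 goblet cell markers 6 rose and 0 fell (Clca1 by 4.81, Fcgbp by 1.66).

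Between the gapmers and the control gapmer in bleomycin lungs, alveolar and endothelial markers were higher too. Of the 10 alveolar type 1 markers 8 were called higher with each gapmer (median differences 0.42 and 0.41) and of the 10 alveolar type 2 markers 7 with each (0.38 and 0.43), larger shares and medians than those of the cilia genes. Of the 10 endothelial markers 3 were higher with gapmer 1 and 7 with gapmer 3 (0.24 and 0.37). None of these 3 lists had a marker called lower. Of the 16 club cell markers 6 were higher and 2 lower with gapmer 1, and 5 higher and 3 lower with gapmer 3. Lower with gapmer 1 and gapmer 3 were 4 and 7 of the 10 goblet cell, 3 and 4 of the 9 basal cell and 4 and 4 of the 10 leukocyte markers, with none called higher.

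With bleomycin under the control gapmer, of 16 club cell markers 9 fell and 3 rose (Pon1 by -1.25, Krt15 by 3.83). Krt15 rose alongside Krt5 (4.44) and Krt14 (3.69) of the basal cell list, and which cells made it was not tested. All 10 endothelial markers fell (Kdr by 1.10). Of 10 alveolar type 1 markers 8 fell and 1 rose (Hopx by -0.92), and of 10 alveolar type 2 markers 4 fell (Lamp3 by 0.87). Of 13 markers of epithelium in general 8 rose (Krt8 by 0.64) and 1 fell. Whether these markers follow the amount of epithelium was not tested. Testis and sperm genes, such as Prm1, Tnp1 and Odf1, had 0 of 11 called by limma (2 with an unadjusted p under 0.05). Of 11 skeletal muscle genes 2 fell (Myh2 by 6.79), with large differences between single arrays. Within groups the cilia array mean had an r of 0.59 with alveolar type 1, 0.53 with endothelial, 0.39 with alveolar type 2, 0.25 with club cell, -0.11 with general epithelial, -0.24 with goblet cell, -0.47 with leukocyte, -0.57 with basal cell and -0.16 with skeletal muscle markers.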

How the data were processed

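Per the labels, 24 whole-lung RNA samples were each labelled with Cy3 and measured on a one-colour array. The deposited values are log2 intensities, which the authors had quantile-normalised, as the values show: the array medians lay between 6.48 and 6.50. Limma was used per the submitters' processing notes, with no version; of background correction the sources used here say nothing. The table held 62976 features, of which 31465 carried a gene symbol. Symbols were brought to current names by accession first and then by synonym (RefSeq, GRCm38.p6), and the feature with the highest mean stood for each of the 6171 genes with several features, with no filter on level, which gave 20738 genes.

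The two-sided test was limma's (version 3.58.1, R 4.3.3; lmFit, then eBayes) over 6 group means; degrees of freedom were 18 residual and 3.26 prior, and a gene's residual SD had a median of 0.14. The fit was tested on simulated data. Precision is limited by the number of arrays. Promoter searches used Python 3.11.15 with pandas 2.3.3 and NumPy 2.4.6, and plots matplotlib 3.10.9.

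The cilia genes, the gene lists and the tests were chosen with earlier results of these data known. The lists are role groups of the cilia genes, further motile cilia, intraflagellar transport, centriole amplification, club, goblet and basal cell, general epithelial, alveolar type 1 and type 2, endothelial, leukocyte, skeletal muscle and testis genes. Values in every array are given for the 5 regulators, for the member of each other role group with the highest level and the smallest p with bleomycin, and, where cilia genes were called between a gapmer and the control gapmer or in the difference in response, for the one with the smallest p. Further genes with such values, Ccdc39 and Dnah5, were chosen after their values were seen. Up to 4 called genes per list are named.

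Alternatives were median centring, removal of a position trend, leaving out the dimmest 25% of genes, the average over a gene's features, a variance trend, robust variance, array weights, a fit of the compared groups alone, a covariate for RNA integrity, a block for the replicate number and each array left out in turn.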

Additional observations from a re-analysis of the deposited data

Results flagged for a closer look

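In the 3 bleomycin groups 42 checks looked for a value far from its group, and 3 found one. All 3 were array 5 of the bleomycin lungs with the control gapmer. By chance about 1 in 20 checks would find such a value, so that 3 of 42 is near the chance level. The mean of array 5 over the cilia genes was -0.15, with the next array at -0.34. Its Dnah6 value was 11.96, with the next at 11.70, and its Ccdc151 value was 9.82, with the next at 9.55. Dnah6 and Ccdc151 are part of that mean, so the 3 results are not separate observations.

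The bleomycin response under gapmer 1 differed from that under the control gapmer in Dnah5 (0.56), Dnah6 (0.58), Dnali1 (0.55) and Ccdc113 (0.45), by the limma test of the difference itself. Of these, 3 are dynein arm genes.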

How the results depend on the processing

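Under the 10 other settings, the count of cilia genes lowered by bleomycin under the control gapmer ran from 18 to 24, and from 17 to 23 with an array left out. With array weights, 21 genes were higher with gapmer 1 and 11 with gapmer 3, 1 and 19 were lower with bleomycin under gapmer 1 and gapmer 3, and the response was higher in 12 with gapmer 1 and 2 with gapmer 3. With only the groups compared in the fit, the counts were 4 higher with gapmer 1, 0 lower with bleomycin under gapmer 1 and 1 in the response to gapmer 1. The RNA integrity number as a covariate left 0 lower under gapmer 1. Removal of the position trend left 2 in the response to gapmer 1. With the replicate number as a block, which changed no other count by over 1.5 times, 0 were lower under gapmer 1 and 1 had a different response with gapmer 3. Over all genes the block moved the count with a different response from 643 to 1116 for gapmer 3 and from 1599 to 2069 for gapmer 1. Deviations of same-numbered arrays from their group means had correlations of -0.41 to 0.42, not all above 0.1, and the labels name nothing that the numbers share, so the fit without the block was kept; 10 of 24 arrays correlated best with their own number, a hint that some may share something. The causes were not tested.

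With an array left out, the counts ran from 6 to 15 higher with gapmer 1, 2 to 10 higher with gapmer 3, 0 to 3 lower with bleomycin under gapmer 1, 3 to 11 lower under gapmer 3, and 0 to 8 and 0 to 3 in the responses to gapmer 1 and gapmer 3. Of 520 values of single called genes under other settings, 479 kept the call, 41 lost it and 0 changed direction; 28 of 52 calls held whichever array was left out. The median differences under these 10 settings, and the array means with a median over genes or with each array centred, moved by less than the SD between arrays. The median r among cilia genes was 0.26 with features averaged, 0.21 in PBS arrays and 0.33 in bleomycin arrays.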
